A study of Mus musculus with 4 samples.

Results

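The genes described here encode the machinery that copies DNA in S phase, together with the factors that bring cells into S phase. They were taken from a list of 47 genes, and every probe set annotated to exactly 1 symbol on that list was used. Of these genes, 45 had such a probe set, through 59 of the 12403 gene probe sets on the array, and 14 of them had more than 1. Pole, the catalytic subunit of polymerase epsilon, and Tyms, which makes thymidylate, were not analysed here. Each gene is described by its brightest probe set, meaning the one with the highest mean signal over the arrays.

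RNA came from neural stem cells of the immortalised mouse line c17.2, grown under proliferating conditions. Clone 42 and clone 48 were stably transfected with Nurr1, an orphan nuclear receptor encoded by Nr4a2, and puroB and puroD carried the puromycin vector alone. The submitters matched clone 42 with puroB and clone 48 with puroD on similar proliferation rates. Each line was 1 clone measured on 1 Affymetrix mouse array, so every difference within a pair is between 2 arrays and has no replicate check. The labels do not say whether the RNAs came from separate cultures.

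The array signals, in arbitrary MAS5 units, had a median of 147.1 for clone 42 and 125.6 for clone 48, and of 160.1 for puroB and 145.9 for puroD. The 3′ to 5′ signal ratio of beta-actin, a measure of RNA integrity, was 1.68 for clone 42 and 2.41 for clone 48, and 1.51 for puroB and 2.0 for puroD, and its part in the results was not tested. Nr4a2 was lower in the Nurr1-labelled clone than in the control clone of each pair, on both of its probe sets. The brightest had 320.1 (clone 42) and 206 (clone 48), against 485 (puroB) and 254 (puroD). The other had 188 (clone 42) and 113.5 (clone 48), against 372 (puroB) and 213 (puroD), with a limma adjusted p of 0.453. The sources used here do not say whether the Nr4a2 probe sets cover the transfected sequence, so the clones are called Nurr1-labelled. Nes, a neural stem cell filament gene, was well measured, at 3174 (clone 42) and 3720 (clone 48), against 3325 (puroB) and 3030 (puroD). Vim, another marker of these cells, was dim, at 84.6 (clone 42) and 61.5 (clone 48), against 29.8 (puroB) and 57.7 (puroD). Fabp7, a gene of radial glia, had 564.5 (clone 42) and 157 (clone 48), against 1293 (puroB) and 1539 (puroD), with a mean log2 difference of −2.24 and a limma adjusted p of 0.0503. Of 8 macrophage markers 4 were above the highest unspiked control on all 4 arrays, among them Cd14 and Csf1r, and Ptprc, Aif1 and Itgam on none, with summed signals of 858 (clone 42) and 598 (clone 48), against 959.5 (puroB) and 918 (puroD). Of 6 endothelial markers Eng and Pecam1 were above it on all 4 arrays, Eng at 3172 to 4421, and Cdh5, Tek and Vwf on none. All 4 tested neuron markers and 5 of 7 tested fibroblast markers had higher signals in clone 42 than in puroB. Of the neuron markers, Nefm passed the expression filter only through the Nurr1-labelled arrays, and Map2, Dcx and Gap43, lower in clone 42, did not pass it. Map2 had 45.8 (clone 42) and 4.2 (clone 48), against 198 (puroB) and 120 (puroD). The lower fibroblast markers were Fn1, at −0.33 in the first pair, and Twist1, at −1.82, which passed only through the control arrays. The part of these marker lists in the replication results was not tested. Tubb3, a neuronal tubulin gene, had 5688 (clone 42) and 4633 (clone 48), against 2703 (puroB) and 2704 (puroD), and Col3a1, a collagen gene, had 5020 (clone 42) and 4010.0 (clone 48), against 1288 (puroB) and 1751 (puroD).

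Before a cell can copy its DNA, the origin recognition complex, with Cdc6 and Cdt1, loads the ring-shaped MCM helicase onto origins, a step called licensing. Kinases then fire the origins, Cdc45 joins the helicase, and the fork advances with polymerases, a sliding clamp and its loader, and proteins that cover single-stranded DNA. Many of the genes involved are transcribed around the entry into S phase under E2F transcription factors, and proliferating stem cells are known to express them. In a population of cells, fewer cells in S phase and less RNA per cell cannot be told apart.

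Most replication genes had lower signals in clone 42 than in its matched control puroB, while the differences between clone 48 and puroD were centred near 0. The brightest probe set of 41 genes passed the expression filter, 40 of them on all 4 arrays, and Ccne2 passed on 3. The median log2 difference over these 41 was −0.84 for clone 42 minus puroB and −0.04 for clone 48 minus puroD, while over all 6419 tested probe sets it was −0.06 and −0.03. Over all 45 measured genes, including those below the filter, the medians were −0.71 and −0.03.

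In the first pair 33 of the 41 tested genes were lower in clone 42, where 55.0% of all tested probe sets were lower. There, 11 genes were at least 2-fold lower, against 4.78% of all tested probe sets, and 0 were 2-fold higher, against 3.57%. In the second pair 24 of 41 were lower in clone 48, against 53.0% of all tested probe sets. Scaling the arrays to a common median instead moved the median over all tested probe sets of the second pair to 0.18, and then 14 of 41 were lower in clone 48, against 34.4%. At least 2-fold lower there was 1 gene, Orc4, against 3.72% of all tested probe sets, and 0 were 2-fold higher, against 1.67%. The count in the second pair was 0 with median scaling. The difference between the pair differences was not tested. Clone 42 had the lowest of the 4 signals in 28 of the 41 genes, where it was lowest in 28.6% of all tested probe sets. It had the highest in 2, against 26.6%.

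Over both pairs the median of the mean differences was −0.42 for the 41 genes and −0.04 for all tested probe sets. Over all 45 measured genes it was −0.40, and it was −0.07 without clone 42 and −0.65 without clone 48. Limma with the matched pair as a block and Benjamini-Hochberg adjustment over all tested probe sets called 0 of the 41 genes, with adjusted p-values from 0.501 to 1.000, where it called 7 probe sets in all, or 0.109%. At an unadjusted p under 0.05 the limma fit held 5 of the 41, namely Cdc7, Cdc45, Pola1, Cdc6 and Pola2, against 7.38% of all tested probe sets. The fit had 1 residual degree of freedom from the arrays, and its standard errors for these genes were between 0.29 and 0.44 on the log2 scale. Between the pairs, the limma fit called 0 of the 41, against 0.483% of all tested probe sets. There, 5 of the 41 had an unadjusted p under 0.05, a level at which the share of all tested probe sets was not counted.

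The 2 control clones differed from each other less than clone 42 differed from puroB in 29 of the 41 genes, which is 70.7%, against 52.3% of all tested probe sets. The median of puroB minus puroD over the 41 genes was 0.14, beside 0.07 over all tested probe sets. Clone 42 minus clone 48 had a median of −0.60, beside 0.05, with 7 of the 41 genes at least 2-fold lower in clone 42, against 4.58% of all tested probe sets, and 0 at least 2-fold higher, against 6.15%. These contrasts share arrays with the matched pairs.

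**Figure D1:**
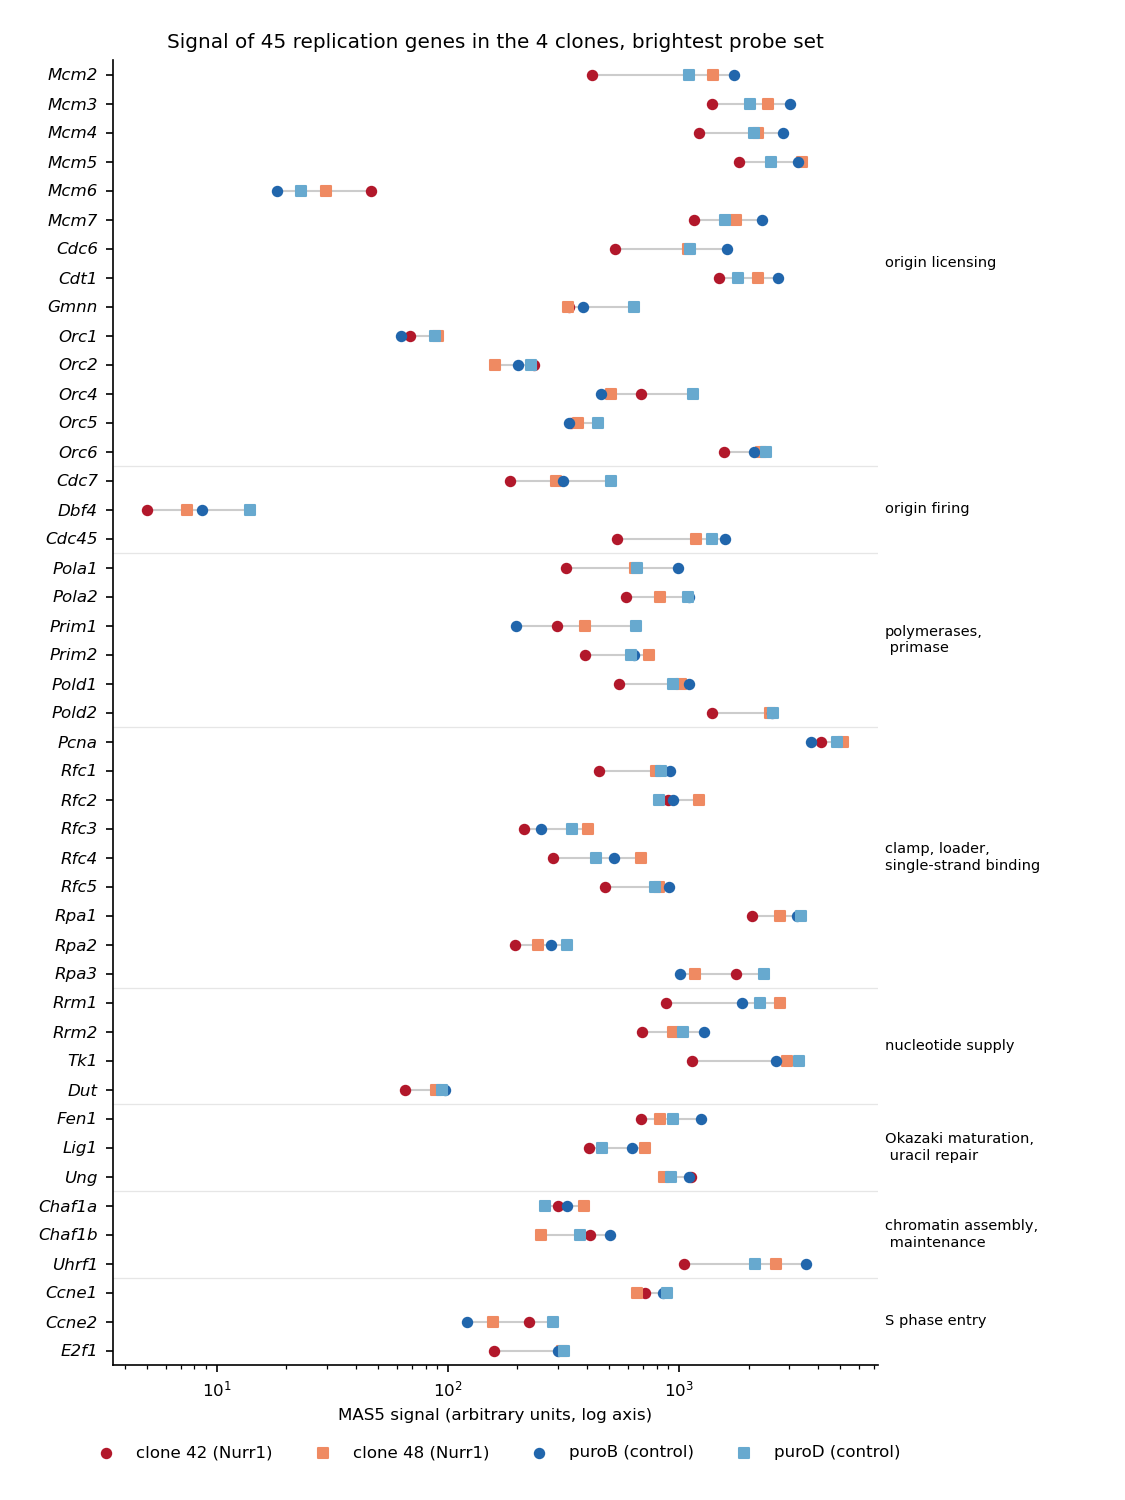
MAS5 signal (arbitrary units, log axis) of the brightest probe set of the 45 measured replication genes, grouped by step, with 1 point per clone and a grey line over the range of the 4 arrays. Clone 42 is the leftmost point in most genes, for example Mcm2 and Uhrf1, while Dbf4 and Mcm6 lie at the dim end.

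**Figure D2:**
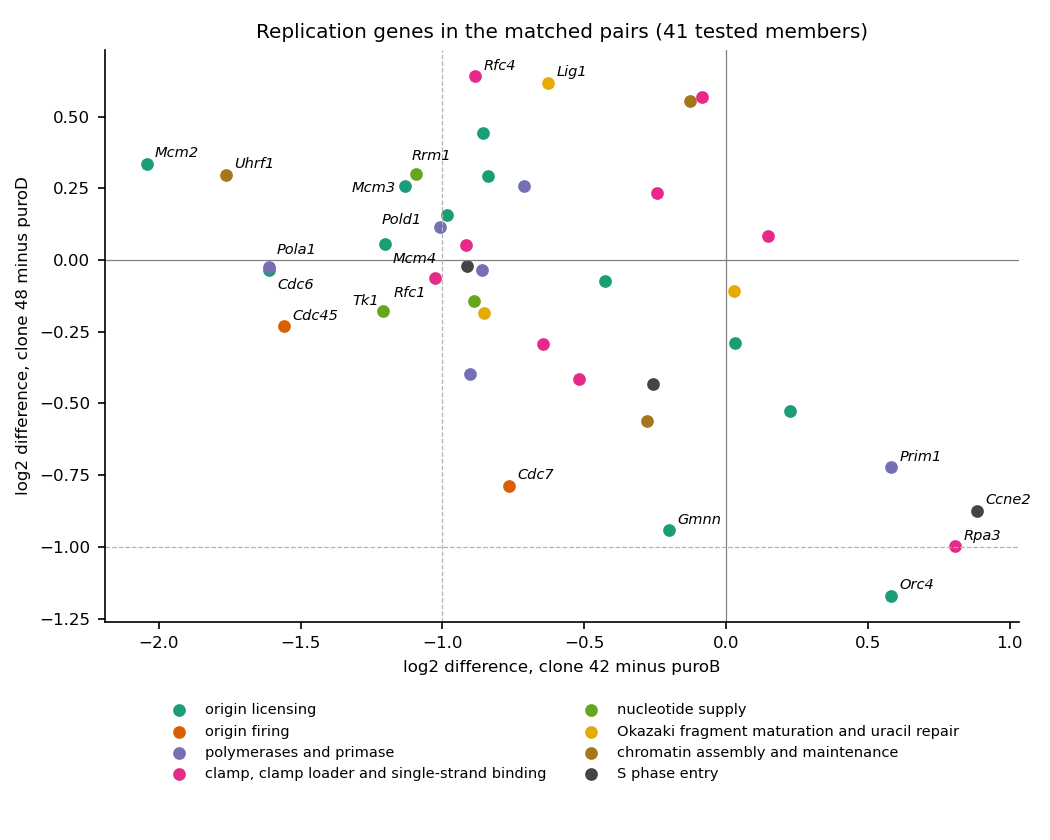
Log2 difference of clone 42 minus puroB (horizontal) against clone 48 minus puroD (vertical) for the 41 tested replication genes, coloured by step, with solid lines at 0 and dashed lines at a 2-fold decrease. Most points lie left of 0 on the horizontal axis, 11 of them at or beyond the dashed line, and 1, Orc4, lies below the horizontal dashed line.

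The promoters of several of these genes carry the letters of an E2F site. Some of those where it lies upstream of the start are shown, all in tested genes with lower signals in clone 42 than in puroB. Upstream matches not shown were those of Rfc3, which differed by −0.24 in the first pair, and of Mcm6 and Orc1, which were not tested. The search was for TTTCCCGC, TTTGGCGC, TTTCGCGC and TTTGCCGC on both strands, in RefSeq windows of the GRCm38.p6 build from 250 bases before to 50 bases after the annotated start. Capitals mark the matched letters, and each stretch is written 5′ to 3′ on the strand of its gene. The Mcm5 stretch is at chr8:75109316-75109407 (+), Mcm7 at chr5:138172001-138172088 (−), Cdc6 at chr11:98907973-98908060 (+), Pola1 at chrX:93632246-93632333 (−) and Uhrf1 at chr17:56304088-56304175 (+). In Mcm5 a pair of matches on opposite strands overlap.
Mcm5: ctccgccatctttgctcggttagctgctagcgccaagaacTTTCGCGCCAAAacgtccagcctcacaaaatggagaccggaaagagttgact
Mcm7: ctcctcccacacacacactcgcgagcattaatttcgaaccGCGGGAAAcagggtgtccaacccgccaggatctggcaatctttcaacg
Cdc6: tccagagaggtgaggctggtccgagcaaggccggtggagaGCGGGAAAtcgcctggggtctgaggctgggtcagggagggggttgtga
Pola1: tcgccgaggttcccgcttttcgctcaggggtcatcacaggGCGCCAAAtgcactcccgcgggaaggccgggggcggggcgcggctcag
Uhrf1: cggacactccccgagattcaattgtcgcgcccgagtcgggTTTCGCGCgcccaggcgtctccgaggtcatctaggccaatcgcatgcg

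A window was matched for 40 of the 45 measured genes. The remaining genes were Mcm4, Gmnn, Prim2, Rfc2 and Ccne2. An E2F word was present in 12 of the 40, or 30%, against 2.61% of all 27025 RefSeq genes with a window and 5.51% of the 4049 tested genes with one. These 12 were Mcm3, Mcm5, Mcm6, Mcm7, Cdc6, Cdt1, Orc1, Pola1, Pold1, Rfc3, Lig1 and Uhrf1. Of the 10 tested members with a word, 5 were at least 2-fold lower in clone 42 than in puroB. Without a word it was 5 of 26, and over all tested probe sets 4.78%. For these members the median of clone 42 minus puroB was −0.996 with a word and −0.71 without. Over all 4049 tested genes with a window it was −0.245 with a word and −0.054 without. The members' median of clone 48 minus puroD was 0.25 with a word and −0.18 without. Whether genes with and without a word differ was not tested. CCAAT, a box common in cell cycle promoters, was in 23 of 40, or 57.5%, against 41.1% of all genes and 43.6% of tested genes. AAAGGTCA, the response element of Nurr1, was in 0 of 40, against 1.70% of all genes and 1.26% of tested genes. A match of letters is a description and not a bound site.

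Origin licensing held several of the genes with the largest differences. In the first pair 9 of its 12 tested genes were lower in clone 42, 4 of them at least 2-fold, with a median of −0.85, while the median of clone 48 minus puroD was 0.01. Mcm2, a subunit of the MCM helicase, had 420.2 (clone 42) and 1400.1 (clone 48), against 1732 (puroB) and 1109 (puroD). Clone 42 stood 4.12-fold below puroB, while clone 48 lay above its own control, between the 2 control clones.

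The other measured MCM subunits had the same order in the first pair. Mcm3 had signals of 1386 (clone 42) and 2436 (clone 48), against 3034 (puroB) and 2035 (puroD). Its other probe set had the differences −1.03 and 0.29, close to the −1.13 and 0.26 of the brightest. Mcm4 had 1222 (clone 42) and 2198 (clone 48), against 2814 (puroB) and 2115 (puroD). Mcm5 had 1817 (clone 42) and 3408 (clone 48), against 3290 (puroB) and 2505 (puroD). In all of these, clone 42 was the lowest array and clone 48 was above puroD. Mcm7 was just under a 2-fold difference, 1.98-fold lower in clone 42 than in puroB, with clone 48 at 0.16 above puroD on the log2 scale. Mcm6, the remaining subunit of the ring, stayed under the highest unspiked control on all 4 arrays and was not tested.

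Among the factors that load the helicase, Cdc6 was the most different. It had 526 (clone 42) and 1091 (clone 48), against 1606 (puroB) and 1117 (puroD), which is 3.05-fold lower in clone 42 than in puroB and −0.03 on the log2 scale for clone 48 minus puroD. Cdt1, which acts beside Cdc6, differed by −0.84 and 0.29 in the 2 pairs, and its other tested probe set by −0.49 and 0.20. Gmnn encodes geminin, which holds Cdt1 in check after origins have fired. Gmnn had 336 (clone 42) and 332 (clone 48), against 386 (puroB) and 638 (puroD). Both Nurr1-labelled clones lay below both control clones here, and the difference was mainly within the second pair.

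The subunits of the origin recognition complex had other array orders than those of the helicase. Orc4 had 685 (clone 42) and 509.6 (clone 48), against 458 (puroB) and 1147 (puroD), so that the 2 control clones enclosed both Nurr1-labelled clones. It differed by 0.58 in the first pair and by −1.17 in the second. Orc2 differed by 0.23 and −0.53, Orc5 by 0.03 and −0.29, and Orc6 by −0.43 and −0.07. Orc1 was dim and not tested, although its signals, 62.7 to 90.2, lay above the highest unspiked control of each array.

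Origin firing was represented by Cdc7 and Cdc45, since Dbf4, the activating partner of the Cdc7 kinase, was under the highest unspiked control on every array. Cdc7 had 186 (clone 42) and 294 (clone 48), against 316 (puroB) and 508 (puroD). The first pair differed by −0.77 and the second by −0.79, although puroB itself lay −0.68 from puroD. Cdc45, which joins the MCM ring to form the active helicase, had 538 (clone 42) and 1184 (clone 48), against 1586 (puroB) and 1389 (puroD). For both genes the Nurr1-labelled clones lay below both control clones, with clone 42 lowest. The limma fit gave Cdc45 a mean difference of −0.90 ± 0.35 (SE, n = 2 clones per group, adjusted p = 0.510) and Cdc7 −0.78 ± 0.30 (adjusted p = 0.501).

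Polymerase alpha, which with primase starts each new strand, was lower in clone 42 on the brightest probe sets of Pola1 and Pola2. Pola1, the catalytic subunit, had 325 (clone 42) and 647 (clone 48), against 993 (puroB) and 657 (puroD), which is 3.06-fold lower in clone 42 than in puroB. Pola2 had 592 (clone 42) and 830.5 (clone 48), against 1107 (puroB) and 1094 (puroD). A dim second probe set of Pola2 was instead higher in clone 42 than in puroB, by 1.82 on the log2 scale. Prim1, the catalytic primase subunit, was also higher in clone 42 than in puroB. It had 295 (clone 42) and 394 (clone 48), against 197 (puroB) and 650.1 (puroD), and its 2 control clones differed 3.29-fold. Prim2, the large primase subunit, differed by −0.71 and 0.26.

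Polymerase delta copies the lagging strand. Its catalytic subunit Pold1 had 551 (clone 42) and 1021 (clone 48), against 1109 (puroB) and 942 (puroD). Clone 42 was 2.01-fold below puroB, just past 2-fold. Pold2, an accessory subunit, had 1390.2 (clone 42) and 2488 (clone 48), against 2523 (puroB) and 2549 (puroD), so that clone 42 alone stood apart. The median over the 6 tested polymerase and primase genes was −0.88 for the first pair and −0.03 for the second, with 2 genes at least 2-fold lower in clone 42.

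The clamp and its loader gave a more mixed picture. Pcna, the sliding clamp, had 4112 (clone 42) and 5113 (clone 48), against 3711 (puroB) and 4823 (puroD). It was the only one of the 41 tested genes that was higher in the Nurr1-labelled clone of both pairs, by 0.15 and 0.08, against 21.7% of all tested probe sets. Rfc1, the large subunit of the clamp loader, had 449.9 (clone 42) and 797 (clone 48), against 916 (puroB) and 833 (puroD). The loader subunit Rfc4 had 284 (clone 42) and 682 (clone 48), against 525 (puroB) and 438 (puroD), with clone 42 lowest and clone 48 highest. Rfc2 differed by −0.08 and 0.57, Rfc3 by −0.24 and 0.23, and Rfc5 by −0.92 and 0.05.

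Replication protein A covers single-stranded DNA behind the helicase, and its subunits differed in pattern. Rpa1 had 2064 (clone 42) and 2741 (clone 48), against 3229 (puroB) and 3358 (puroD). Rpa2 differed by −0.52 and −0.41, and for both of these the Nurr1-labelled clones lay below both control clones. Rpa3, the smallest subunit, had 1764 (clone 42) and 1168 (clone 48), against 1007 (puroB) and 2330.3 (puroD). Its pair differences were 0.81 and −0.997, the second falling just short of 2-fold, and the control clones differed 2.31-fold. Of the 9 tested genes of this step, 7 were lower in clone 42 of the first pair, 1 of them at least 2-fold.

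Genes that supply nucleotides were lower in clone 42 as well. Rrm1, the large subunit of ribonucleotide reductase, had 882 (clone 42) and 2747 (clone 48), against 1880.2 (puroB) and 2233 (puroD). Rrm2, its small subunit, had 694 (clone 42) and 943 (clone 48), against 1284 (puroB) and 1042 (puroD). Tk1, the thymidine kinase of S phase, had 1143 (clone 42) and 2934 (clone 48), against 2641 (puroB) and 3318 (puroD). Clone 42 had the lowest signal for all 3, with a median pair difference of −1.09 in the first pair and −0.14 in the second. Dut, which keeps uracil out of DNA, did not pass the filter, at 65.0 (clone 42) and 88.4 (clone 48), against 97.2 (puroB) and 94.3 (puroD).

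Okazaki fragments are trimmed by Fen1 and sealed by Lig1. Fen1 had 688 (clone 42) and 831 (clone 48), against 1242 (puroB) and 945 (puroD). Lig1 had 406 (clone 42) and 715 (clone 48), against 628 (puroB) and 466 (puroD), so its pair differences, −0.63 and 0.62, had opposite signs. Ung, which removes uracil from DNA, had 1132 (clone 42) and 861 (clone 48), against 1109.9 (puroB) and 927 (puroD). Its other tested probe set differed by −0.82 and 0.59, where the brightest differed by 0.03 and −0.11, so the direction for Ung depended on the probe set. Of the 5 genes with more than 1 tested probe set, 3 kept the sign of the first pair on each of them. The exceptions were Ung and Pola2, whose dim second probe set had 234 (clone 42) and 42.7 (clone 48), against 66.1 (puroB) and 150.1 (puroD).

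Among the genes that rebuild chromatin behind the fork, Uhrf1, which recognises hemimethylated DNA and brings the maintenance methyltransferase to it, was the most different. It had 1048 (clone 42) and 2625 (clone 48), against 3555 (puroB) and 2136 (puroD). Clone 42 was 3.39-fold below puroB, and clone 48 was above puroD by 0.30 on the log2 scale. Chaf1a and Chaf1b, subunits of the histone chaperone CAF-1, differed little in the first pair. Chaf1a had 299 (clone 42) and 387 (clone 48), against 327 (puroB) and 263 (puroD). Chaf1b had 414 (clone 42) and 252 (clone 48), against 503 (puroB) and 372 (puroD).

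The factors that drive cells into S phase also varied. Ccne1, encoding cyclin E1, had 712 (clone 42) and 657 (clone 48), against 849.7 (puroB) and 887 (puroD), with both Nurr1-labelled clones below both control clones. Ccne2, encoding cyclin E2, had 224 (clone 42) and 156 (clone 48), against 121 (puroB) and 286 (puroD), with the control clones at the extremes. E2f1, a transcription factor that activates many replication genes, had 159 (clone 42) and 313 (clone 48), against 299 (puroB) and 318 (puroD). Its other probe set differed by −0.56 in the first pair and 0.11 in the second.

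Some genes with opposite pair differences had the array order of the hybridisation controls, although most did not. Of the 23 such genes, Orc4, Rpa3 and Ccne2 were highest in puroD, then clone 42, then clone 48, and lowest in puroB, an order that 3 of the 41 genes had, and that was held by 3.80% of all tested probe sets. Of the 9 spiked hybridisation controls, 8 had the same order, and a Cre control had 5645 (clone 42) and 4374 (clone 48), against 3617 (puroB) and 7135 (puroD). The part of hybridisation in these genes was not tested. Between the control clones, 4 of the 41 genes, these 3 and Prim1, were at least 2-fold lower in puroB, against 3.04% of all tested probe sets, and 0 were 2-fold higher, against 3.02%.

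**Figure D3:**
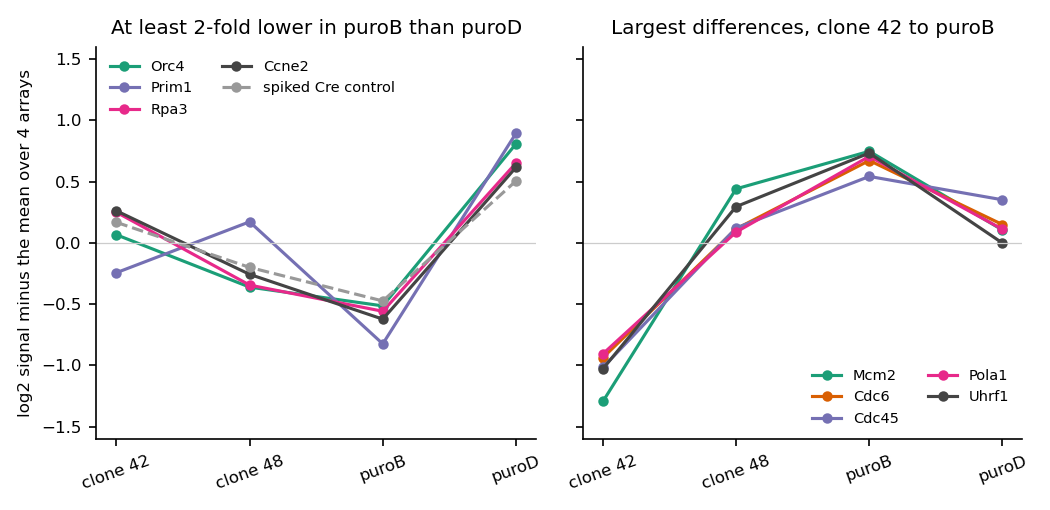
Log2 signal of each gene minus its mean over the 4 arrays, in the 4 clones, with each gene's points joined by a line. Left, the 4 genes at least 2-fold lower in puroB than in puroD, with a spiked Cre control as the dashed line; right, the 5 genes with the largest clone 42 to puroB differences, all lowest in clone 42.

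The signals of both Nurr1-labelled clones lay below those of both control clones in 13 of the 41 genes, where this was so for 17.9% of all tested probe sets. They lay above both in 0, against 12.8%. The 13 were Cdc6, Gmnn, Cdc7, Cdc45, Pola1, Pola2, Pold2, Rfc1, Rpa1, Rpa2, Rrm2, Fen1 and Ccne1. In each pair on its own, 17 genes were lower in both Nurr1-labelled clones, against 29.7% of all tested probe sets, and 23 had opposite signs. With median scaling, clone 48 lay above puroD for Cdc6, Pola1, Pold2, Rfc1, Rrm2 and Fen1, by 0.03 to 0.19 on the log2 scale. The counts of 13 and 17 thus depended on the scaling, and the matching shares of all tested probe sets were not counted with median scaling. Besides Cdc45 and Cdc7, the largest mean differences in the limma fit belonged to Mcm2, −0.85 ± 0.44 (SE, n = 2 clones per group, adjusted p = 0.757), Cdc6, −0.82 ± 0.36 (adjusted p = 0.620), Pola1, −0.82 ± 0.36 (adjusted p = 0.60), and Uhrf1, −0.73 ± 0.41 (adjusted p = 0.820). Without clone 42 these means were −0.33 for Cdc45, 0.01 for Mcm2, −0.30 for Cdc6, −0.32 for Pola1, −0.44 for Cdc7 and −0.07 for Uhrf1, and without clone 48 they lay between −1.72 for Mcm2 and −1.11 for Cdc7. Leaving out puroB gave −0.53 for Mcm2, −0.52 for Pola1 and −0.37 for Uhrf1, and leaving out puroD gave −0.43 for Cdc7 and −1.10 for Uhrf1. The largest difference between the pairs was that of Prim1, −1.07 for the first minus the second, with a limma adjusted p of 0.229.

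Related genes outside the list were set beside the members. Of 15 tested genes of other fork and origin proteins, 12 were lower in clone 42 than in puroB, with medians of −0.63 in the first pair and −0.20 in the second, and 2 were at least 2-fold lower, namely Smc3 and Tipin. Of 18 tested genes of nucleotide synthesis and salvage, 13 were lower in clone 42, with medians of −0.37 and −0.11. Adsl, a purine synthesis enzyme, differed by −1.56 and 0.12, and Shmt1, which supplies one-carbon units, by −1.11 and −0.31. The limma fit called 0 genes in each of these lists, with 2 and 1 at an unadjusted p under 0.05.

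Other genes that copy chromatin had medians of −0.78 in the first pair and 0.05 in the second, with 12 of 14 lower in clone 42 and 5 at least 2-fold. Hells, a chromatin remodeller needed for DNA methylation, had 156 (clone 42) and 209 (clone 48), against 576 (puroB) and 513 (puroD), with a mean limma difference of −1.59 ± 0.31 (SE, n = 2 clones per group, adjusted p = 0.0637). Cdca7, its binding partner, had 404 (clone 42) and 1103 (clone 48), against 1208 (puroB) and 1061 (puroD). In the list of E2F, Rb and S phase kinase regulators, 15 of 16 were lower in clone 42, with medians of −0.51 and −0.09. The kinase inhibitor locus Cdkn2a had 118 (clone 42) and 79.0 (clone 48), against 366 (puroB) and 248 (puroD), with a limma adjusted p of 0.107. It passed the expression filter only through the control arrays, where its signal was higher. Mybl2, a cell cycle transcription factor, had 40.1 in clone 42, under the highest unspiked control, and 316 (clone 48), against 299 (puroB) and 455 (puroD). Genes of the replication checkpoint and repair were lower in clone 42 in 14 of 14 tested, with medians of −0.66 and −0.04. The limma fit called 0 genes in these 3 lists, with 1, 4 and 4 at an unadjusted p under 0.05.

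Genes of mitosis, through which the copied chromosomes are divided, were lower in clone 42 as well. In the first pair 37 of 39 tested had their lower signal in clone 42, and 18 differed at least 2-fold, with medians of −0.96 in the first pair and −0.01 in the second. Clone 42 was the lowest array in 36 of the 39. The limma fit called 1 of them lower, against 0.0467% of all tested probe sets. That gene was Kifc1, a spindle motor, with 54.7 (clone 42) and 224 (clone 48), against 342 (puroB) and 719.9 (puroD), the mean log2 difference being −2.16 ± 0.35 (SE, n = 2 clones per group, adjusted p = 0.0487). It was above the highest unspiked control in 1 of the 2 Nurr1-labelled clones only, clone 48, so its difference in the first pair has no measured size, and the fitted mean and its call rest on a dim signal. Without clone 42 the mean was −1.15. Of the other settings tried, the limma call of Kifc1 was kept only with median scaling and without clone 48, and its adjusted p without clone 42 was 0.554. Top2a, which untangles DNA before division, had 584 (clone 42) and 1196 (clone 48), against 1918 (puroB) and 1864 (puroD). Median clone 42 minus clone 48 was −1.30 for the mitosis genes and −0.60 for the replication genes. Whether the lists differ from each other was not tested.

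**Figure D4:**
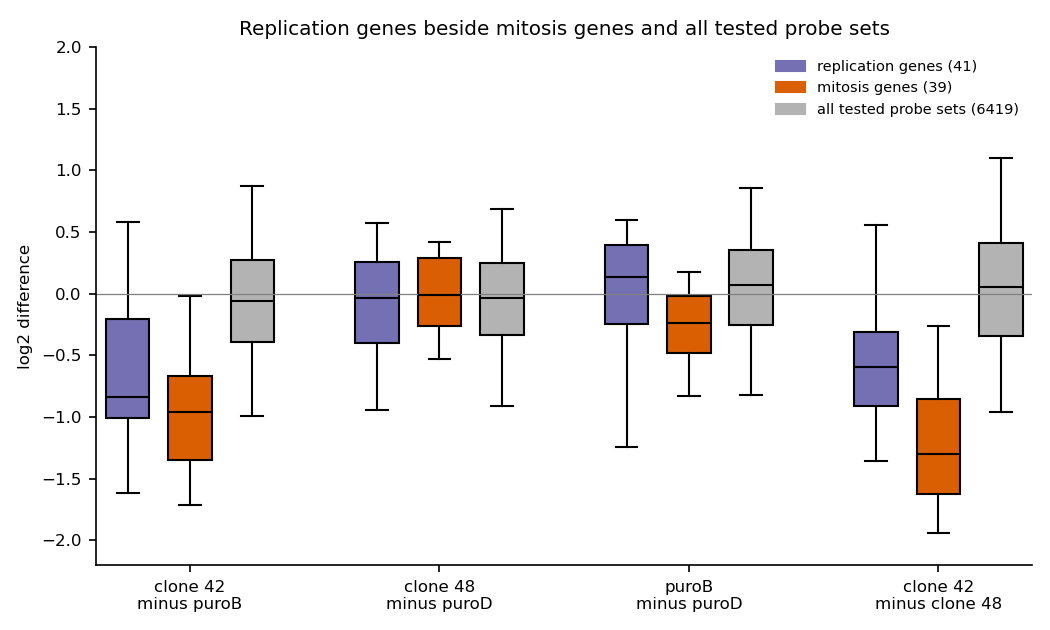
Log2 differences between clones for the 41 replication genes, the 39 mitosis genes and all 6419 tested probe sets, with the line at the median, the box over the middle 50% of values and whiskers at the 5th and 95th percentiles. The gene lists lie below all tested probe sets for clone 42 minus puroB and clone 42 minus clone 48, and near them for clone 48 minus puroD.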

How the data were processed

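One table of intensity values was used, the MAS5 signals the authors deposited for 4 mouse arrays on a linear scale. MAS5 is named in the submitters' processing notes, while the sources used here give neither its version nor its scaling target. The deposited signals already had trimmed means between 500.4 and 500.5. Array controls (66 probe sets) were left out.

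Probe sets were named through the platform annotation and Entrez IDs, with 10814 having 1 symbol, 396 several and 1193 none. Signals were scaled to a trimmed mean of 500 (2% left out at each end), floored at their 30th percentile, 40.3, and taken to log2. Probe sets above the median of all values, 145, on at least 2 arrays were tested, 6419 in all. Limma 3.58.1 in R 4.3.3 fitted the group with the matched pair as a block, with a trended prior and Benjamini-Hochberg adjustment at 0.05. The pairing comes from the descriptions, and clones of 1 pair deviated together with a correlation of 0.19. A difference within 1 pair is a log2 ratio of 2 arrays, with no test. The number of arrays limits the precision. The limma variance behind each p-value had 1 residual and 13.1 prior degrees of freedom, so it was drawn mostly from other probe sets. It covers spread between these clones only.

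The 4 signals are given for genes at least 2-fold different in a pair or among the 3 brightest of their step. The standard error and adjusted p are given for the 6 members of largest mean difference, and outside the list for at most 4 genes a list, by mean difference. Some genes were also named for their pattern after their values were seen. The members and lists were chosen with earlier results of these data known. Promoter windows and current gene symbols came from RefSeq (GRCm38.p6). The alternatives were other scalings, filters and floors, a pseudocount of 50, no block, all probe sets of a gene averaged, and leaving out each clone. The design text names clone 42 in both pairs, and the sample descriptions were followed. Of the marker lists, limma called 0 of 5 tested neural stem, 4 neuron, 3 oligodendrocyte, 7 fibroblast, 3 macrophage and 1 endothelial genes, with 1, 3, 1, 5, 0 and 0 at an unadjusted p under 0.05.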

Additional observations from a re-analysis of the deposited data

Results flagged for a closer look

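Opposite differences of at least 0.5 on the log2 scale in the 2 matched pairs drew attention to the probe sets below. With 1 array per clone, the difference between the pair differences was not tested.

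Orc4 differed by 0.581 for clone 42 minus puroB and by −1.17 for clone 48 minus puroD. Rpa3 differed by 0.809 and −0.997, Ccne2 by 0.885 and −0.874, and Prim1 by 0.581 and −0.723. These 4 had their lowest signal in puroB and their highest in puroD. A dim probe set of Pola2 differed by 1.822 and −1.814, unlike the brightest probe set of that gene.

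The opposite direction was seen in Rfc4, at −0.885 and 0.64, in Lig1, at −0.627 and 0.618, and in a second probe set of Ung, at −0.816 and 0.591. In Rfc4 and Lig1, clone 42 had the lowest signal and clone 48 the highest.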

How the results depend on the processing

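With median scaling, 1 of the differences between clone 42 and puroB changed sign, that of Rfc2, to 0.04, and so did small ones of 11 genes between clone 48 and puroD, there or with quantile normalization. Of the 41 tested genes, 32 to 33 were lower in clone 42 than in puroB and 8 to 11 at least 2-fold lower over 7 other settings. The median over all 45 measured genes, −0.71 in the main setting, stayed between −0.84 and −0.58 over 9 settings. With the tested genes only it was −0.84. For clone 48 minus puroD the corresponding median lay between −0.04 and 0.15. Of the 41 tested genes, 14 were lower in clone 48 with median scaling, and 0 were 2-fold lower with median scaling and 2 with quantile normalization. Limma called 0 members, Nurr1-labelled against control, under every setting, with 0 to 8 at an unadjusted p under 0.05, and 0 to 16 when a clone was left out. Between the pairs 1 member, Prim1, was called with the filter on all 4 arrays (adjusted p = 0.0364).

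Over all probe sets, limma called 49 with the filter on all 4 arrays and 51 with median scaling. It called 0 with no filter, with no floor, with the pseudocount, with quantile normalization and with no replicate block in place of the pairing, with 287 to 560 at an unadjusted p under 0.05 over the 7 settings. Leaving out a clone gave 0 to 27 calls, namely 27 without clone 42, 20 without clone 48, 0 without puroB and 3 without puroD, in fits that assume a lone clone varies like the other group. Between the pairs it called 100 with the filter on all 4 arrays, 63 with median scaling, 1 with the pseudocount and 0 with no filter or quantile normalization. Hells was called with the filter on all 4 arrays (adjusted p = 0.0001) and with median scaling (0.0208). Leaving out clones, the mean difference ranged from −1.72 to 0.0145 for Mcm2 and from −1.54 to 0.108 for Adsl, both highest without clone 42. The cause of these changes was not tested. Signals near the unspiked controls, as for Dbf4 and Mcm6, set no level.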

Other observations

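Histone genes, many of which are transcribed in S phase with DNA replication, were looked at after their values were seen and as a group did not follow the replication genes in clone 42. Of 10 tested histone probe sets, 5 had 1 symbol, and the others were shared by several genes. In the first pair 6 of the 10 were higher in clone 42, where 55.0% of all tested probe sets were lower. At least 2-fold higher were 4, against 3.57% of all tested probe sets. Limma called 1 of the 10, against 0.109% of all tested probe sets. It was a probe set shared by several histone H2B genes, with 3789 (clone 42) and 951 (clone 48), against 379.5 (puroB) and 360.1 (puroD) (limma adjusted p = 0.0487). H3c14, a histone H3 gene of a family of near-identical genes, had 5659 (clone 42) and 470.0 (clone 48), against 401 (puroB) and 405 (puroD) (limma adjusted p = 0.206). That probe set, annotated to H3c14 alone, differed by 3.82 on the log2 scale in the first pair. Other tested probe sets, shared by several H3 genes with H3c14 among them, differed there by −0.31 and 0.41. The size of the H3c14 difference thus depended on the probe set. The linker histone gene H1f2 had 1614 (clone 42) and 848 (clone 48), against 584 (puroB) and 340.4 (puroD) (limma adjusted p = 0.0853). Both Nurr1-labelled clones lay above both control clones for H1f2, as for 12.8% of all tested probe sets. H2bc21, a histone H2B gene, had 162 (clone 42) and 85.7 (clone 48), against 336 (puroB) and 264 (puroD) (limma adjusted p = 0.193). H1f10, another linker histone gene, had 529 (clone 42) and 1682 (clone 48), against 926 (puroB) and 714 (puroD), so its pair differences had opposite signs.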
